A study of Mus musculus with 4 samples.

Results

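The genes described here move, convert, bind and respond to thyroid hormone. They were chosen by name and with earlier results of these arrays known: the deiodinase genes Dio2 and Dio3, the transporter gene Slc16a10, the hormone-binding protein gene Crym, the receptor genes Thra, Thrb and Rxrg, and the hormone-responsive genes Klf9 and Hr. Of these 9 genes, 8 were measured, among 20252 genes in all, each by 1 transcript cluster (the array's probe set for 1 transcribed locus). Klf9 shared its transcript cluster with another symbol and has no value here. All arrays came from the neuroretina, the neural layer of the eye, of CD-1 mice at day 13.5 of gestation. The 2 control arrays were labelled Lhx2 lox/lox, so both alleles of Lhx2, a LIM-homeodomain transcription factor gene of eye development, carry loxP sites. The 2 labelled knockout arrays carried the same alleles with a transgene expressing Cre recombinase in retinal progenitors. Both groups carry the loxP sites and the labelled knockout group alone carries Cre, so Cre itself and the loss of Lhx2 cannot be told apart as sources of a difference. The labels do not say whether replicates were separate embryos or pools, so the spread between arrays may be technical.

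Thyroxine is converted to the active hormone triiodothyronine by the type 2 deiodinase, product of Dio2, and both hormones are inactivated by the type 3 deiodinase, product of Dio3. Inside the cell the active hormone binds the nuclear receptors encoded by Thra and Thrb, which act on target genes mostly as heterodimers with retinoid X receptors such as the product of Rxrg. In the mouse retina Dio3 is active early in development and protects cone photoreceptors from excess hormone, and Thrb in cones directs the choice of opsin. Dio3 lies at one end of an imprinted region whose other end holds Dlk1, with long noncoding RNA genes, among them Rian, between them. Dio3os, a noncoding RNA gene, lies beside Dio3 on the opposite strand.

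The sequences at the starts of 4 genes of that region are shown because Dio3 and Dio3os were lower, and Dlk1 and Rian higher, in the labelled knockout arrays, as described further on. Each runs from 250 bases before to 50 bases after the annotated start (RefSeq, GRCm38.p6), at chr12:110278980-110279279 on the + strand, chr12:110278019-110278318 on the - strand, chr12:109452573-109452872 on the + strand and chr12:109603695-109603994 on the + strand. Capitals mark every match, on either strand, to 4 short motifs. TATAAA is the core read by the basal transcription machinery near many starts. TAATTA is a core bound by many homeodomain proteins. AGGTCA is the half-site of thyroid hormone receptors and other nuclear receptors. GGGCGG is the core of the GC box.
Dio3: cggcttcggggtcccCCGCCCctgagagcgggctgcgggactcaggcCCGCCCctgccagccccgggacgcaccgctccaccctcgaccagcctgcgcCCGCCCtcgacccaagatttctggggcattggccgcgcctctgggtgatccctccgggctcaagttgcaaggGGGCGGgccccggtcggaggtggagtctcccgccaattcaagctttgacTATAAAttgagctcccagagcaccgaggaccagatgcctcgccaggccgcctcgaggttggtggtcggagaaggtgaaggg
Dio3os: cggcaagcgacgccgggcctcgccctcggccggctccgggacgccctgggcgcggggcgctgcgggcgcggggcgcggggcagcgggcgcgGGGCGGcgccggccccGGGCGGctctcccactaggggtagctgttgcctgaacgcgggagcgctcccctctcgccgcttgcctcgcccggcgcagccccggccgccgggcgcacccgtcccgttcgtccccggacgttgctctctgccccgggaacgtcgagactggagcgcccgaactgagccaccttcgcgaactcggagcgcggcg
Dlk1: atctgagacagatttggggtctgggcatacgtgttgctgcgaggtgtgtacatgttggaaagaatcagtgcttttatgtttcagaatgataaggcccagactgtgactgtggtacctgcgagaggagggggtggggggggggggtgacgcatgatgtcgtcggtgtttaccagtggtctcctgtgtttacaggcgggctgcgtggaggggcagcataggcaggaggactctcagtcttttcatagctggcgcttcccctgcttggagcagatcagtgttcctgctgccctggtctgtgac
Rian: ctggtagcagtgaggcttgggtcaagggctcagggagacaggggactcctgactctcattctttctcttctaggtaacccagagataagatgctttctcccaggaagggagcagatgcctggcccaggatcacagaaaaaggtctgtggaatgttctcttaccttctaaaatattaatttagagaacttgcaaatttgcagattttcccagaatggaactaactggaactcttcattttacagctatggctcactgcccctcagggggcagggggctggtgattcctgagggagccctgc

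The Dio3 sequence held 1 TATAAA match, beginning at -31 from the start, and 4 GGGCGG matches. The Dio3os sequence held 2 GGGCGG matches, and the annotated starts of Dio3os and Dio3 lay 1162 bases apart. None of the 4 motifs matched in the Dlk1 or Rian sequence, and TAATTA and also AGGTCA matched in none of the 4 sequences. Among 32851 sequences of the same kind, 13.6% held TATAAA, 5.29% held TAATTA, 16.3% held AGGTCA and 35.7% held GGGCGG. Bases were G or C at 69% of the Dio3 positions and 80% of the Dio3os positions, against 55.7% for Dlk1, 49.3% for Rian and a median of 52.7% over all. Which factors bind these sequences was not measured.

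Over 112205 transcript clusters, median log2 signals were 2.97 (control) and 2.85 (labelled knockout) on the replicate 1 arrays, and 3.53 and 3.46 on the replicate 2 arrays. Both replicate 2 arrays thus lay higher, and differences are given within each replicate number as well as between group means. A signal under the 75th percentile of its array's transcript clusters (between 3.98 and 4.52) is called dim here, since it may not be above background. The Lhx2 transcript cluster differed by 0.02 on the log2 scale (SE 0.35). The exons its probes cover are not stated in the sources used here, so it does not check the labels. Of the 11 retinal progenitor markers, 10 were measured, and all 10 were above the 75th percentile on every array. With limma on the deposited values, 257 genes had a higher and 158 a lower signal in labelled knockout than in control arrays at an adjusted p of 0.05. Quantile normalization left 0 limma calls at that threshold (2263 at an unadjusted p under 0.05), and 36 higher and 37 lower calls at an adjusted p of 0.10.

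Dio3 was the member that differed most between the genotypes. Its log2 signal was 7.24 in control replicate 1 and 6.41 in control replicate 2, against 3.22 in labelled knockout replicate 1 and 3.47 in labelled knockout replicate 2. Both control arrays lay well above both labelled knockout arrays, and both labelled knockout signals were dim. Control arrays averaged 6.83 ± 0.58 (SD, n = 2) and labelled knockout arrays 3.34 ± 0.18, a log2 difference of -3.48. Dio3 was 16.2-fold lower within the replicate 1 arrays and 7.69-fold lower within the replicate 2 arrays. Because the lower signals were dim, these folds compare a clear signal with one that may be background. The gene was listed because of this difference, which is therefore given without a test.

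Dio2, the activating deiodinase gene, stood at 2.87 and 3.58 in control and at 3.27 and 3.33 in labelled knockout arrays. All 4 signals were dim and the groups overlapped. By replicate number its log2 differences were 0.40 and -0.25. At this signal a difference in Dio2 was not detectable, and an absence of Dio2 RNA is not shown.

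**Figure D1:**
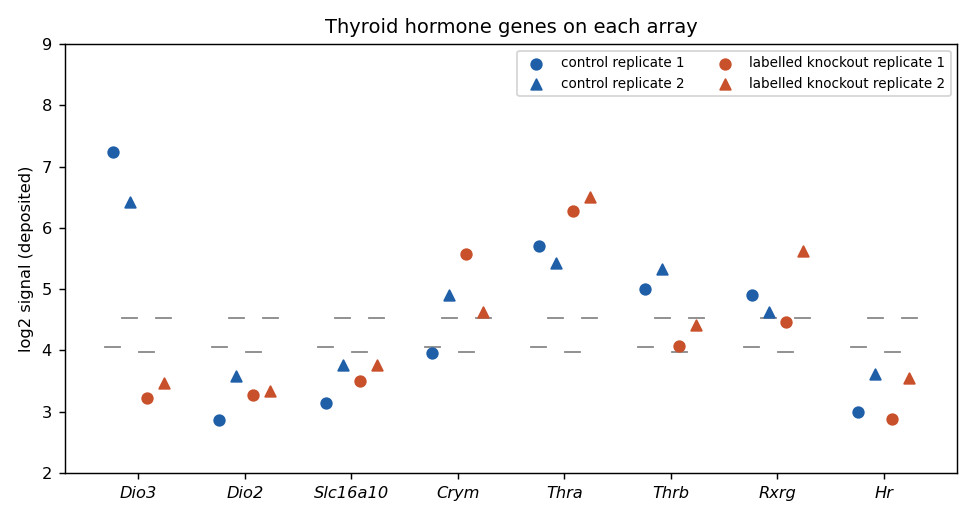
Deposited log2 signal (vertical axis) of the 8 measured thyroid hormone genes on each of the 4 arrays, with circles for replicate 1, triangles for replicate 2, and grey dashes at the 75th percentile of each array. Dio3 stands at 7.24 and 6.41 in control and 3.22 and 3.47 in labelled knockout arrays; Dio2, Slc16a10 and Hr lie below the dashes throughout.

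Of the genes that carry or bind the hormone, Slc16a10, which encodes a transporter of thyroid hormones and aromatic amino acids, was dim on all 4 arrays. Its log2 signals were 3.15 and 3.77 in control and 3.51 and 3.77 in labelled knockout arrays, and the groups overlapped. Crym encodes a crystallin-related protein that binds triiodothyronine in the cytosol. Its signal was 3.96 and 4.91 in control and 5.58 and 4.62 in labelled knockout arrays. The control replicate 1 signal was dim. The labelled knockout replicate 1 array was the highest of the 4, and the replicate 2 arrays lay in the opposite order. The log2 difference of Crym was 1.61 within replicate 1 and -0.28 within replicate 2, and its mean difference was 0.67. That mean rests on the replicate 1 arrays: it was 0.19 without either of them, and 1.14 without either replicate 2 array.

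The mean differences of the 2 hormone receptor genes had opposite signs, and limma called neither gene. Thra, which encodes the receptor found widely in the nervous system, had log2 signals of 5.70 and 5.43 in control and 6.27 and 6.50 in labelled knockout arrays. Both labelled knockout arrays lay above both control arrays, by 0.57 within replicate 1 and 1.07 within replicate 2. Thrb, whose product acts in cones, had signals of 5.0 and 5.33 in control and 4.08 and 4.42 in labelled knockout arrays. Both labelled knockout arrays lay below both control arrays. The Thrb differences by replicate number were alike, -0.92 within each, or 1.89-fold lower in both. One of its 4 signals, that of labelled knockout replicate 2, was dim. The pooled log2 differences were 0.82 for Thra and -0.92 for Thrb. The groups did not overlap for either gene, as for 19.8% of all genes.

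Rxrg, a retinoid X receptor gene known in cones and ganglion cells, had signals of 4.90 and 4.63 in control and 4.47 and 5.63 in labelled knockout arrays. One labelled knockout array was the lowest of the 4 and the other the highest, so the groups overlapped. Its log2 difference was -0.44 within replicate 1 and 1.0 within replicate 2. Leaving out the second labelled knockout array turned its mean difference of 0.28 to -0.30, and leaving out the first raised it to 0.86. Hr, a corepressor gene induced directly by the hormone in rodent brain, was dim on all arrays, at 3.0 and 3.62 in control and 2.88 and 3.55 in labelled knockout arrays. Its groups overlapped, with differences of -0.11 and -0.07 by replicate number.

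Among the 8 measured members, 5 mean differences were above 0 and 3 below, with a median of 0.13 beside -0.06 over all genes. Limma called 1 of the 8, Dio3, where it called 2.05% of all genes. Dio3 was also the 1 member of 8 that differed at least 2-fold in the same direction within both replicate numbers, as 1.98% of all genes did (1.02% higher and 0.958% lower). The groups did not overlap for 3 of the 8 (Thra higher, Dio3 and Thrb lower), beside 19.8% of all genes (9.63% higher and 10.2% lower). Since the members were chosen with this comparison known, nothing is read from these counts.

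**Figure D2:**
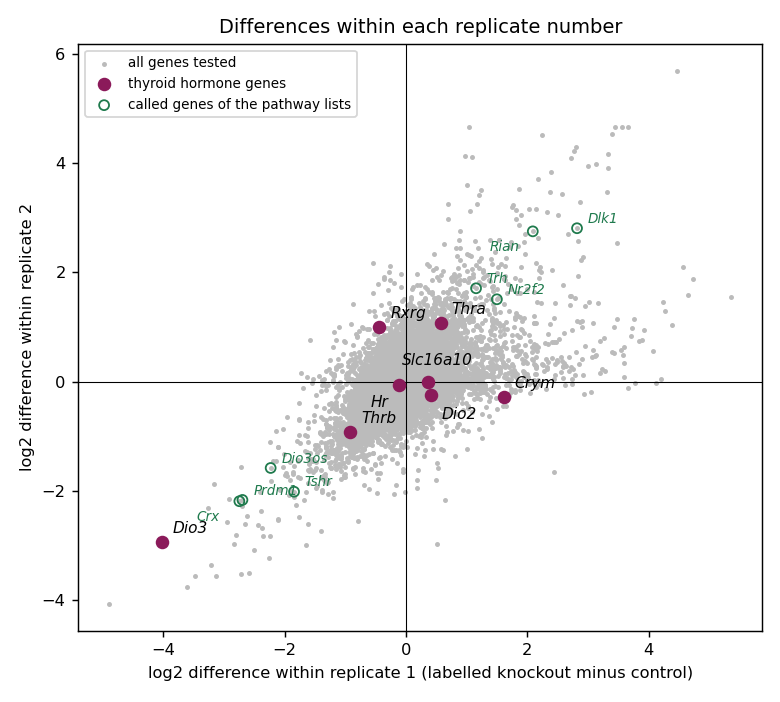
Log2 difference, labelled knockout minus control, within the replicate 1 arrays (horizontal) and the replicate 2 arrays (vertical) for 20252 genes (grey), the 8 thyroid hormone genes (filled) and the 8 called genes of the pathway lists (open). Dio3 lies at -4.02 and -2.94, Thrb at -0.92 on both axes, and Crym and Rxrg on opposite sides of 0 on the 2 axes.

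The arrays measure whole tissue, so fewer cells of a type and less RNA per cell cannot be told apart. The summed linear signal of the 10 measured retinal progenitor markers was 5416 and 7329 in control and 1881 and 2545 in labelled knockout arrays. Their median log2 difference was -1.22 within replicate 1 and -1.32 within replicate 2, beside -4.02 and -2.94 for Dio3. The markers varied widely around it, with differences between group means from -3.69 to -0.75. The largest were those of Six6 (-3.61 and -3.76 by replicate number) and Fgf15 (-3.47 and -3.57), similar in size to that of Dio3. The part of progenitor number in the lower Dio3 signal was not tested. Markers of tissue outside the neuroretina also moved. The 9 of 10 measured periocular mesenchyme markers summed to 176 and 236 in control and 2379 and 514 in labelled knockout arrays. The 10 pigment epithelium markers summed to 142 and 397 in control and 1057 and 544 in labelled knockout arrays, and among them Rpe65 and Ttr were dim on every array. The 5 of 6 measured muscle markers summed to 55.9 and 73.0 in control and 366 and 86.2 in labelled knockout arrays. The 8 endothelium markers summed to 604 and 696 in control and 642 and 541 in labelled knockout arrays. Their median log2 differences were 1.48 and 0.56 by replicate number, with 7 of the 8 mean differences above 0 and 1 below. The 7 of 8 measured hypothalamic markers summed to 265 and 421 in control and 473 and 1247 in labelled knockout arrays, but the median of their log2 differences was 0.05. Limma called Sim1, Otp and Fezf1 higher among them and Rax, also a retinal progenitor marker, lower (-2.21, SE 0.35, limma adjusted p = 1.35e-07), and Nkx2-2, Nkx2-4 and Hmx3 were dim on every array. Mesenchyme, pigment epithelium and muscle sums were thus highest in labelled knockout replicate 1, where Crym was highest, as were lens ectoderm sums. Hypothalamic sums were highest in labelled knockout replicate 2, where Rxrg was highest. So were ganglion cell sums (3368 and 4759 in control, 2552 and 5972 in labelled knockout arrays), and those of macrophage and of amacrine and horizontal cell markers. Both replicate 2 arrays lay higher in general, so ranks across all 4 arrays include that shift. By replicate number, median log2 differences were -0.03 and 0.23 for hypothalamic and -0.28 and 0.23 for ganglion cell markers. They were 0.38 and 0.72 for macrophage and -0.53 and 0.24 for amacrine and horizontal cell markers. The part of any of these tissues or cell types in the values of Crym, Rxrg, Thrb and the other members was not tested.

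**Figure D3:**
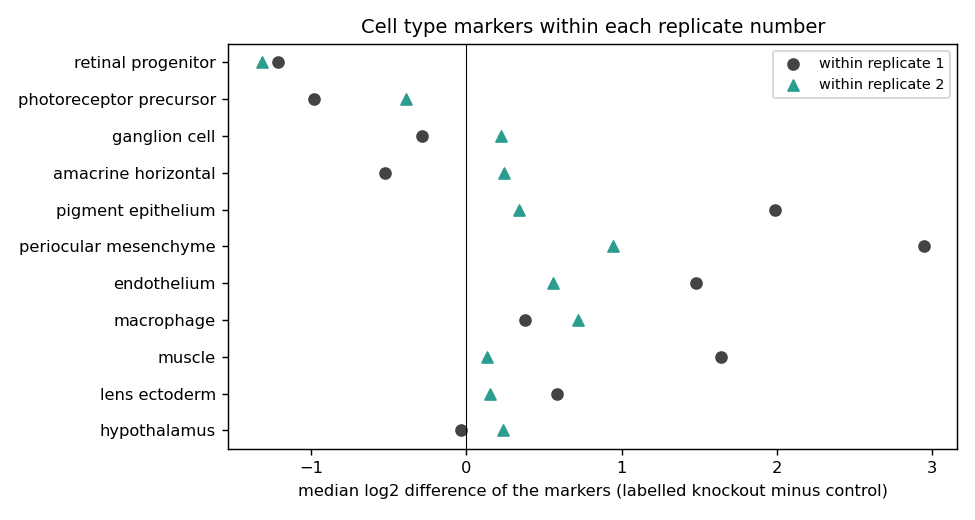
Median log2 difference, labelled knockout minus control, of the measured markers of 11 cell types or tissues within the replicate 1 arrays (circles) and the replicate 2 arrays (triangles). Periocular mesenchyme lies at 2.95 and 0.94, and retinal progenitors at -1.22 and -1.32.

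The 5 genes whose deviations from their own mean over the 4 arrays lay closest to those of Dio3 were Fzd5, a Wnt receptor gene, the growth factor genes Fgf3 and Fgf15, Tbx3, a T-box factor gene of dorsal retina, and Foxn4, a factor gene of amacrine and horizontal cell specification. The Euclidean distance over the 4 log2 signals ran from 0.69 for Fzd5 to 0.91 for Foxn4. Fzd5 had signals of 7.97 and 8.0 in control and 4.76 and 4.65 in labelled knockout arrays. Its control signals were nearly equal, while those of Dio3 had an SD of 0.58. Of the 5, Fgf3 was the one that, like Dio3, differed more within replicate 1 (-3.26) than within replicate 2 (-2.32). These were the nearest among all genes tested, and 4 arrays give little to compare a pattern on.

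Around Dio3, genes of the same imprinted region differed in both directions. Of 8 listed genes 6 were measured, and limma called Dlk1 and Rian higher and Dio3os lower, where it called 1.27% of all genes higher and 0.780% lower. Over the 6 the median difference was 0.21, against -0.06 over all genes. Dio3os had log2 signals of 4.96 and 4.83 in control and 2.73 and 3.24 in labelled knockout arrays. Both labelled knockout signals were dim, as for Dio3. Dio3os fell by 1.91 on the log2 scale (SE 0.49, limma adjusted p = 0.00727), with differences of -2.23 and -1.58 by replicate number. The annotated bodies of Dio3 and Dio3os do not overlap in the RefSeq table, but where the probes of either lie was not read here.

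Dlk1 encodes a membrane protein related to Notch ligands, and had signals of 4.34 and 4.28 in control and 7.16 and 7.09 in labelled knockout arrays. The 2 arrays of each genotype lay within 0.1 of each other, and the second control signal was dim. Dlk1 rose 7.03-fold, a log2 difference of 2.81 (SE 0.37, limma adjusted p = 1.74e-11). Mesenchyme and muscle of the embryo are known sources of Dlk1 RNA. The median difference of the muscle markers was 1.64 within replicate 1 and 0.13 within replicate 2, and that of the mesenchyme markers 2.95 and 0.94. The Dlk1 difference was 2.82 and 2.81, and the part of these tissues in it was not tested. Rian, a noncoding RNA gene that hosts small nucleolar RNAs, had signals of 9.35 and 8.78 in control and 11.44 and 11.54 in labelled knockout arrays, a rise of 2.42 (SE 0.57, limma adjusted p = 0.00213). All 4 Rian transcript clusters were higher in both labelled knockout arrays than in both control arrays, with differences from 1.37 to 2.42.

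Every gene between Begain and Ppp2r5c that has a transcript cluster of its own was then read, a step taken after values of the region had been seen. The RefSeq table places 110 genes there, ends included, and 9 of them had such a cluster, none of the 61 miRNA genes among them. The noncoding RNA gene 6430411K18Rik, which lies between Dlk1 and Rian, went from 3.76 and 3.85 to 5.90 and 6.02, with differences of 2.14 and 2.17 by replicate number. Both of its control signals were dim. Rtl1, a retrotransposon-derived gene, and 3110009F21Rik were dim on all 4 arrays, the 4 clusters of Rtl1 differing by between -0.27 and 0.69. The flanking genes Begain and Ppp2r5c differed by -0.12 and 0.04 between the group means. Begain was dim on both replicate 2 arrays. In gene order, signals were thus higher at Dlk1, dim at Rtl1 and higher at 6430411K18Rik and Rian. They were dim at 3110009F21Rik and lower at Dio3os and Dio3. Meg3 shared its transcript cluster with another symbol and is not reported.

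**Figure D4:**
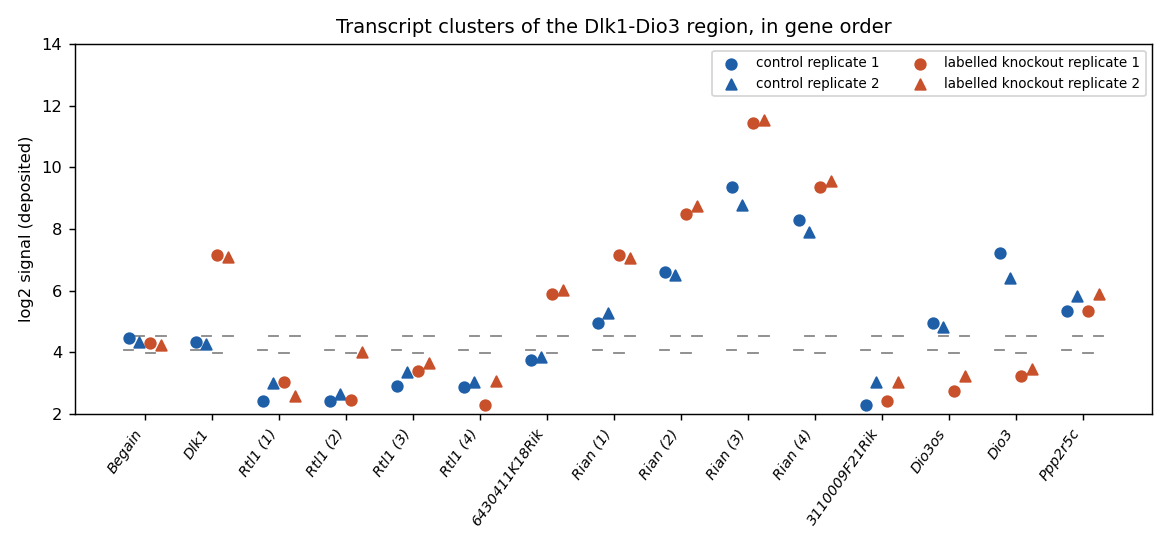
Deposited log2 signal (vertical axis) of each transcript cluster of the 9 genes of the Dlk1-Dio3 region with 1 symbol, in gene order, on the 4 arrays; numbers in brackets separate clusters of 1 gene and grey dashes mark the 75th percentile of each array. Dlk1, 6430411K18Rik and the 4 Rian clusters lie higher in the labelled knockout arrays, and Dio3os and Dio3 lower.

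Genes of the hypothalamic, pituitary and thyroid axis were mostly dim: 12 of 15 measured were under the 75th percentile on every array. Limma called 1 higher and 1 lower, where it called 1.27% of all genes higher and 0.780% lower. Tshr, the receptor gene for thyroid-stimulating hormone, had signals of 4.96 and 5.70 in control and 3.11 and 3.68 in labelled knockout arrays. Both labelled knockout signals were dim, and the groups did not overlap. Tshr fell by 1.93 on the log2 scale (SE 0.45, limma adjusted p = 0.00218), with differences of -1.84 and -2.02 by replicate number. Trh encodes thyrotropin-releasing hormone, which Sim1- and Otp-dependent neurons of the hypothalamus make. Its signals were 3.81 and 4.87 in control and 4.97 and 6.58 in labelled knockout arrays, a rise of 1.43 (SE 0.40, limma adjusted p = 0.0242). The first control signal was dim. Within a replicate number Trh was higher by 1.15 and 1.71, and the first labelled knockout signal lay only just above the second control signal. The Trh difference rests on single arrays: it was 0.62 without labelled knockout replicate 2 and 0.90 without control replicate 1, where the call was lost, and 2.24 without labelled knockout replicate 1. Sim1 and Otp themselves had differences of 4.47 and 5.70, and of 3.33 and 4.17, by replicate number. Their control signals were dim. The part of such neurons in the Trh difference was not tested.

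Of 20 genes around Thrb in the cone programme, 1 was called higher and 2 lower, beside 1.27% and 0.780% of all genes. Their median difference was -0.27, beside -0.06 over all genes. Crx, a homeobox gene of photoreceptors, stood at 5.92 and 6.25 in control and at 3.17 and 4.06 in labelled knockout arrays, and fell by 2.47 (SE 0.42, limma adjusted p = 9.34e-07). Prdm1, a repressor gene of photoreceptor precursors, fell by 2.43 (SE 0.40, limma adjusted p = 4.07e-07). Both labelled knockout signals were dim for Crx and also for Prdm1 (3.65 and 4.12). Nr2f2, an orphan nuclear receptor gene, rose by 1.5 (SE 0.35, limma adjusted p = 0.00224). Otx2, upstream of Crx and Prdm1, differed by -0.31 (SE 0.40, limma adjusted p = 1.00). The cone opsin genes Opn1sw and Opn1mw were dim on all arrays. Set beside these, Thrb with -0.92 lay between Otx2 and Crx.

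Hormone transport, metabolism, receptor partner and response genes gave 0 calls by limma among 45 measured, where it called 2.05% of all genes. Of the 45, 3 had an unadjusted p under 0.05, as did 1272 of all 20252 genes. Beside these shares, the 0 is not read as a result about the 45 genes. Among 7 transporter genes, the 2 of smallest p were Slc7a8 and Slco4a1. Slc7a8, which encodes a light chain of an amino acid transporter that also carries thyroid hormone, had signals of 6.22 and 6.59 in control and 7.68 and 7.36 in labelled knockout arrays (log2 difference 1.12, SE 0.35, limma adjusted p = 0.0688). Slco4a1, an organic anion transporter gene, went from 4.73 and 4.66 to 3.35 and 3.97 (log2 difference -1.03, SE 0.47, limma adjusted p = 0.545). In 11 genes of hormone metabolism and selenoprotein synthesis, which deiodinases need, differences lay between -0.34 and 0.31; the 2 of smallest p were Sepsecs (-0.34) and Usp33 (0.31). In 13 genes of receptor partners and cofactors they lay between -0.35 and 0.16, with Med1 (-0.35) and Tbl1x (-0.29) first. Of 14 hormone-responsive genes of the brain, Reln, which encodes an extracellular guidance protein, had signals of 8.18 and 8.35 in control and 6.99 and 7.49 in labelled knockout arrays (log2 difference -1.03, SE 0.37, limma adjusted p = 0.172), and Sema7a differed by 0.52. The median over these 14 genes was -0.04.

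**Figure D5:**
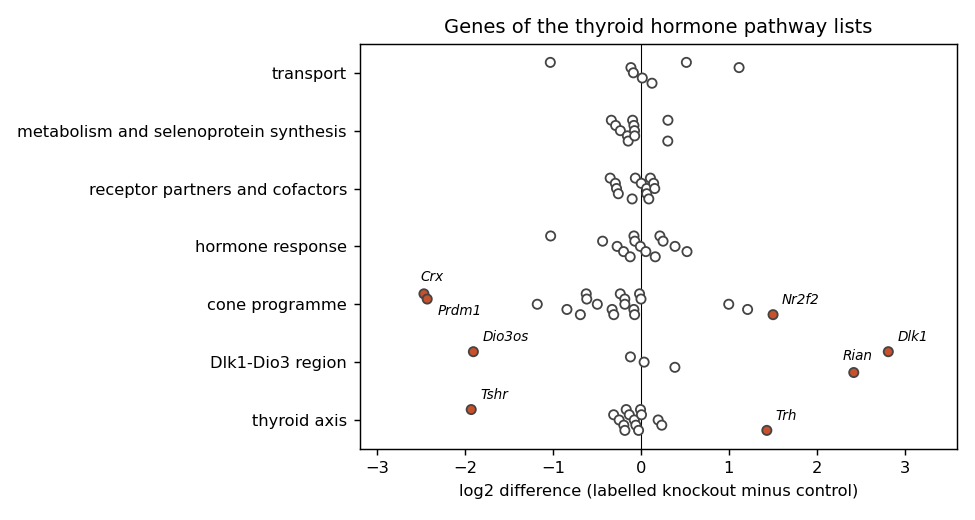
Log2 difference between group means (horizontal axis, labelled knockout minus control) of each measured gene in 7 pathway lists, filled and named where limma's adjusted p was under 0.05. The 8 called genes lie in the cone programme, the Dlk1-Dio3 region and the thyroid axis. Transport, metabolism, receptor partner and response genes have none, where limma called 2.05% of all genes.

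Limma thus called 8 of the 86 measured pathway genes, beside 2.05% of all genes, in lists chosen with earlier results known. These 8 calls depend on the scale of the arrays and on single arrays. After quantile normalization limma called 0 of them at an adjusted p of 0.05 (20 of the 86 genes had an unadjusted p under 0.05) and 4 at 0.10, namely Crx, Prdm1, Dlk1 and Tshr. With any 1 array left out, Dlk1 and Prdm1 still passed at 0.05. The Crx call was lost without control replicate 2 (limma adjusted p = 0.0691). The calls of Dio3os, Rian and Tshr were lost without either control array, where adjusted p ran from 0.128 to 1.00, and without labelled knockout replicate 1, at 0.304, 0.0629 and 0.168. The calls of Trh and Nr2f2 were lost without either control array (0.0973 to 0.998) and without labelled knockout replicate 2, at 0.969 and 0.0956. Without the intensity trend in limma, these 2 genes did not pass either (adjusted p = 0.0985 and 0.0632).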

How the data were processed

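RNA of 4 neuroretina samples, depleted of ribosomal RNA, was hybridised to Affymetrix whole-transcript arrays, per the labels' protocols. Each deposited value is the log2 signal of 1 transcript cluster; the authors used RMA, Partek and genome build mm9, per the submitters' processing notes, which give no versions. Array medians differed, so the values are not on a common scale. Of 112205 transcript clusters, a platform annotation table gave 25513 exactly 1 symbol; 2290 with several named no gene, and 84402 were unnamed here. The cluster of highest mean over the 4 arrays stood for each of 20252 genes. Promoter sequences came from RefSeq tables (GRCm38.p6).

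Groups and replicate numbers came from the sample titles. The gene test was limma 3.58.1 under R 4.3.3 (genotype as the only term, eBayes with an intensity trend, two-sided, Benjamini-Hochberg over all genes, adjusted p of 0.05), and the script was tested on simulated data. Only genes that passed are said to have risen or fallen. SEs were set from genes of like signal rather than from a gene's own 2 arrays. The fit covered the members too, but since they were chosen with this comparison known, no p of a member is given. The members and the 7 pathway and 11 marker lists were chosen with earlier results of these data known. Named genes are the members, Lhx2, from each pathway list up to 4 called genes (otherwise the 2 of smallest p), Dio3os, Dlk1, and the 5 genes nearest to Dio3 and to Thra in pattern; the member with the largest positive difference was Thra. Otx2, Opn1sw, Opn1mw, Sim1, Otp, Fezf1, Rax, Begain, Ppp2r5c, Rtl1, 6430411K18Rik, 3110009F21Rik and the markers named as dim were chosen after their values were seen. Alternatives covered scaling, a filter on dim genes, several transcript clusters per gene, the variance trend, the replicate number as a block, thresholds and each array left out. The number of arrays limits the precision.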

Additional observations from a re-analysis of the deposited data

How the results depend on the processing

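Dio3, Thra, Thrb and Crym kept the sign of their difference under each scaling, filter, transcript cluster rule and left-out array tried, Dio3 between -3.89 and -3.07, Thra between 0.69 and 0.95, Thrb between -1.09 and -0.75 and Crym between 0.19 and 1.14. With 1 array left out the sign of the others was not fixed: Dio2 ran from -0.28 to 0.43, Slc16a10 from -0.13 to 0.49, Rxrg from -0.30 to 0.86 and Hr from -0.42 to 0.24. The filter on dim genes removed Dio2, Slc16a10 and Hr. Dio3 alone differed at least 2-fold within both replicate numbers under quantile normalization, median centring, the filter and the mean over clusters. Its limma call was lost at 0.05 after quantile normalization, after median centring and with the replicate number as a block. Of these settings, only the block gave the call at 0.10. The count of 415 called genes was less stable: limma called 0 after quantile normalization, 0 after median centring (1959 at an unadjusted p under 0.05), 19 among genes at or above the median level, and 271 without the intensity trend. At 0.10 it called 73 after quantile normalization and 17 after median centring, the latter a setting added after seeing the data. With 1 array left out it called between 127 and 285. Of 86 pathway genes, limma called 8 as reported, 0 after quantile normalization, 0 after median centring at either threshold (20 at an unadjusted p under 0.05), 1 (Dlk1) among genes at or above the median level, 4 after quantile normalization at 0.10, and between 2 and 7 with 1 array left out. Same-numbered arrays deviated from their group means together (r = 0.479 across genes), but the labels do not say what a number shares. With the replicate block limma called 0 genes at 0.05 (3513 at an unadjusted p under 0.05) and 0 pathway genes (24 at an unadjusted p under 0.05). At an adjusted p of 0.10, added after seeing the data, the block gave 415 genes and 10 pathway genes. Those 415 were 160 higher and 255 lower, against 257 and 158 in the main fit, so they are not the same set. The causes were not tested. Signals under the 75th percentile limit what can be said of Dio2, Slc16a10, Hr and the lower side of the Dio3, Dio3os, Tshr, Crx and Prdm1 differences. The same holds for the labelled knockout signals of Slco4a1 and Fgf3. It also holds for the control signals of 6430411K18Rik, Sim1, Otp and Fezf1. Trh, Thrb, Crym, Dlk1, Tbx3 and Nt5dc3 each had a single dim signal.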

Other observations

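The 5 genes nearest in pattern to Thra, the member with the largest positive difference, were Sox4, a transcription factor gene of newborn neurons, Acvr2a, an activin receptor gene, Cadm4, a cell adhesion gene, Nt5dc3 and Plcd1, with Euclidean distances over the 4 log2 signals from 0.10 to 0.14. Sox4 had signals of 9.89 and 9.61 in control and 10.34 and 10.64 in labelled knockout arrays. As for Thra, its difference within replicate 2 (1.03) was larger than within replicate 1 (0.44). None of the 5 was called by limma (adjusted p from 0.371 to 1.00). The likeness is a description over 4 arrays.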
